A study of Oryctolagus cuniculus with 9 samples.

Results

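The expression of 4 genes of monocytes and macrophages, AIF1, CD68, CSF1R and STAB1, was examined in rabbit knee cartilage by RNA sequencing. They were selected by gene symbol and were 4 of the 14870 genes listed in the deposited tables. All libraries came from New Zealand white rabbits, aged 4 to 5 months at surgery, and no genetic modification is named for any group. A full-thickness osteochondral defect was drilled in the trochlear groove of both knees. The defect of the right knee received a CLCS scaffold, a porous sponge of collagen and chondroitin sulfate, and the defect of the left knee was left untreated. At 12 weeks after surgery, 3 samples each of CLCS defects, untreated defects and healthy cartilage were taken. The sampling scheme of the study places the healthy tissue on the condyle, so injury and joint site cannot be told apart in any comparison with healthy cartilage.

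Macrophages clear debris, take part in inflammation and organise repair after joint injury, while healthy articular cartilage is an avascular tissue in which chondrocytes are the main cell. CSF1R is the surface receptor for CSF1 and IL34, the growth factors on which the survival and differentiation of most macrophages depend, and it is also carried by osteoclasts and their precursors. STAB1 is a large endocytic scavenger receptor of macrophages and sinusoidal endothelium. CD68 is a heavily glycosylated protein of the lysosomal and endosomal membrane that is abundant in macrophages and osteoclasts. AIF1, also called IBA1, is a calcium and actin binding protein of macrophages and microglia that acts in membrane ruffling.

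The deposited counts were low. They summed to 724986 to 1226408 recovered reads per library, a small part of the reads sequenced and aligned per the study's own mapping table, so the sums are not the sequencing depth. Between 2 and 23 reads of 3 of the 4 genes were counted in each library, and single reads weighed on their values. Genes that every cell uses were also low, with 10 to 128 reads of ACTB and 15 to 91 of GAPDH per library. ND6, the one protein gene on the light strand of mitochondrial DNA, took 86.0% to 94.4% of what was counted on the 13 protein genes of mitochondria in each library. The sources used here state neither whether the library kit kept the strand nor how strand was used in counting. Whether the counts hold the transcripts of a gene or reads of its opposite strand could therefore not be settled, and this bears on every count given here. A single gene, ENSOCUG00000023467, held 17.8% to 49.4% of the reads in 8 libraries, with the highest share in the CLCS replicate 3 library. The untreated replicate 3 library stood apart: its most abundant gene held 4.52% of its reads, it had 505 reads of COL2A1, the collagen of cartilage, against 4061 to 20508 in the others, and its median correlation with its own group over genes was 0.859 against 0.875 to 0.918 in the others. Values below are as deposited (reads divided by the size factor of the library), with the number of reads beside them where they are few. The values are not scaled to gene length, so a comparison between genes is one of reads and not of transcript levels. Nothing states that the replicates of a group were separate animals, and the p-values measure the spread between these libraries.

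CSF1R had more reads in the defects than in healthy cartilage. The healthy libraries held 5, 7 and 2 reads of CSF1R (ENSOCUG00000021056), the untreated libraries 13, 15 and 18, and the CLCS libraries 11, 13 and 9. On the deposited scale each of the 6 defect libraries was above each of the 3 healthy libraries. On that scale the untreated and CLCS libraries overlapped. With each library scaled to its total recovered reads (CPM), CLCS replicate 3 was just below healthy replicate 2, at 7.34 against 7.41. The other defect libraries stayed above all healthy ones, and the CLCS libraries were all below the untreated ones. The mean deposited value was 4.54 ± 2.65 (SD, n = 3) in healthy cartilage, 13.9 ± 3.20 in the untreated and 11.8 ± 0.874 in the CLCS group. The mean was thus 3.05-fold higher in untreated and 2.60-fold higher in CLCS defects than in healthy cartilage. On the pooled reads these ratios were 3.07 (95% exact binomial interval 1.66 to 6.05) and 2.67 (1.39 to 5.39), intervals that cover counting error only. In bulk tissue, more cells of a type and more RNA per cell cannot be told apart.

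**Figure D1:**
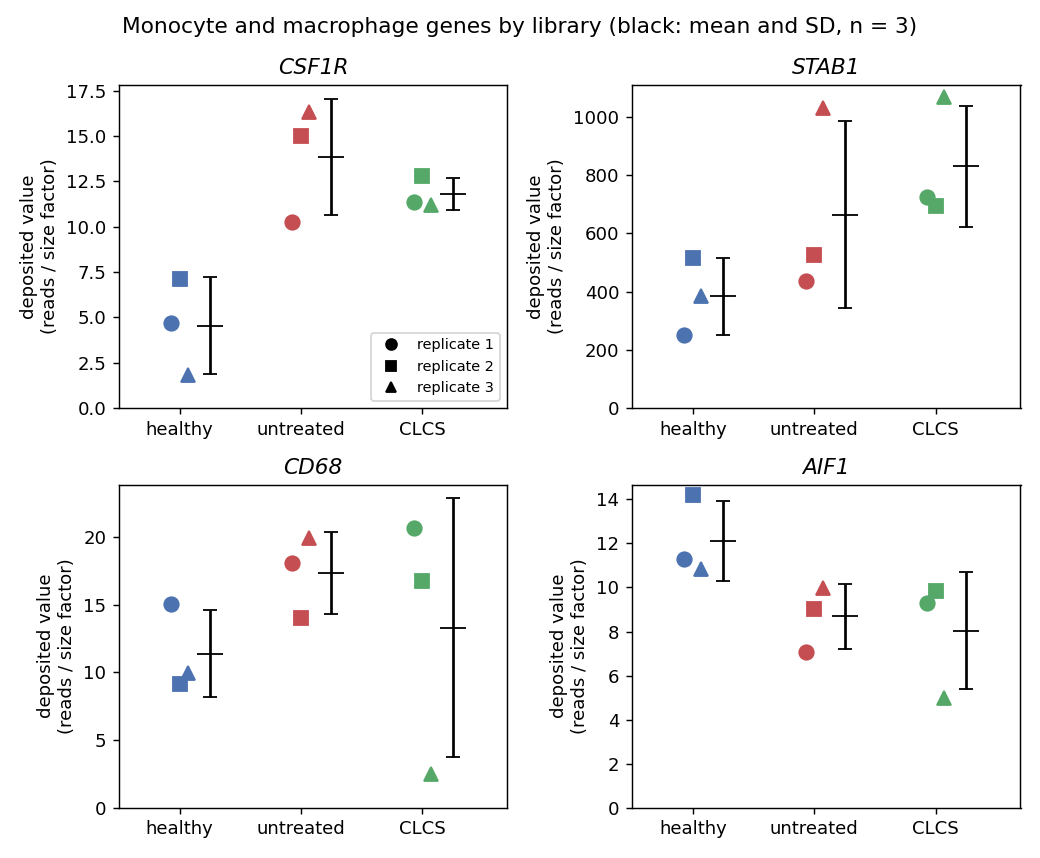
Deposited value of each gene (vertical axis, reads divided by the size factor of the library) in the 3 healthy, 3 untreated and 3 CLCS libraries, with marker shapes for the replicate number and a black bar for the mean and SD of each group. All 6 defect libraries lie above the healthy ones for CSF1R and below them for AIF1, the untreated replicate 3 library is high for STAB1, and the CLCS replicate 3 library is low for CD68 and AIF1.

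The call for CSF1R depended on how the libraries were combined. Comparisons were made with limma on log2(deposited value + 1), and p-values received Benjamini-Hochberg adjustment over all genes tested. Genes with an adjusted p under 0.05 were called. With the 6 defect libraries set against the 3 healthy ones, CSF1R was higher by 1.43 on the log2 scale (SE 0.34, adjusted p = 0.0398), the only call among the 4 genes, where 6.58% of the 3812 genes tested were called. The share of those genes whose 6 defect libraries were all above the healthy ones was 7.71%. The labels do not say whether untreated and CLCS libraries came from knees of the same rabbits. For every gene, the main fit of both defect groups together took these libraries as independent. The CSF1R call was lost with the quasi-likelihood test of edgeR (adjusted p = 0.0758), with DESeq2 (adjusted p = 0.0644) and with no filter on low values (adjusted p = 0.104). It was also lost in 7 of 9 leave-one-out fits of limma, without healthy replicate 1 or 3, untreated replicate 2 or 3, or any of the CLCS replicates, with adjusted p between 0.0682 and 0.120. Without untreated replicate 3, the library that stood apart, the difference was 1.37 (adjusted p = 0.0682). CSF1R had 14 reads in all in healthy cartilage and passed the filter on low values mainly through the defect groups, so its presence among the genes tested is no support for the difference.

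Set against healthy cartilage one group at a time, CSF1R was not called. In untreated defects the difference was 1.53 (SE 0.44, adjusted p = 0.135 with limma), where 2.55% of 3496 genes were called and 11.3% had all untreated libraries above all healthy ones. Among the 6 libraries of CLCS defects and healthy cartilage, CSF1R did not pass the filter. With all 9 libraries in 1 limma fit the CLCS difference was 1.33 (SE 0.39, adjusted p = 0.120), and without the filter it was 1.33 (adjusted p = 0.346). Between CLCS and untreated defects the difference was -0.19, with a 95% interval from -0.84 to 0.45 (adjusted p = 0.996), which allows a lower or a higher level in CLCS defects. All comparisons with healthy cartilage share the same 3 healthy libraries. After scaling each library to its total recovered reads the mean of CSF1R in CLCS defects was 0.606 times that in untreated defects, against 0.851 times on the deposited scale.

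**Figure D2:**
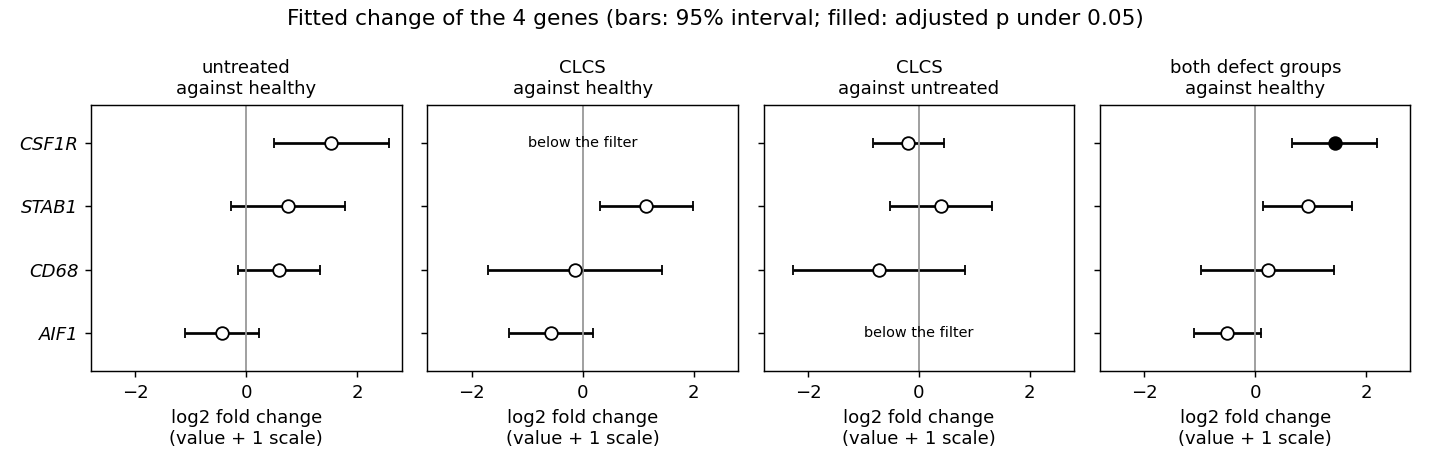
Fitted log2 fold change of each gene on the log2(deposited value + 1) scale (horizontal axis) in the 4 comparisons, with 95% intervals as bars and filled points for an adjusted p under 0.05 in limma. CSF1R in both defect groups against healthy cartilage is the only filled point, and CSF1R and AIF1 each fell below the filter on low values in 1 comparison.

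The genes on either side of CSF1R also had more reads in the defects. In the RefSeq annotation of the assembly mOryCun1.1, which differs from the oryCun2.0 build of the files and was used for neighbour relations only, CSF1R lies between HMGXB3 and PDGFRB. HMGXB3, an HMG box protein, had 1190, 1491 and 1089 reads in healthy libraries, 6484, 10688 and 9090 in untreated and 7816, 6544 and 4490 in CLCS libraries. Each defect library thus held at least 4490 reads of this neighbour beside 9 to 18 reads of CSF1R. HMGXB3 rose by 2.69 (SE 0.37, adjusted p = 0.0251 with limma) in untreated and by 2.48 (SE 0.30, adjusted p = 0.0105) in CLCS defects. The untreated call held in 0 of 6 leave-one-out fits (adjusted p 0.0537 to 0.0900). The CLCS call held in 4 of 6 and was lost without healthy replicate 3 (adjusted p = 0.0509) or CLCS replicate 1 (adjusted p = 0.0643). The call with both defect groups together (adjusted p = 0.00331) held in all 9 leave-one-out fits and 7 of 7 other settings. PDGFRB, a growth factor receptor of pericytes and fibroblasts, had 3, 7 and 1 reads in healthy, 18, 4 and 17 in untreated and 17, 6 and 6 in CLCS libraries, and its groups overlapped. The part of reads from a neighbouring gene in the CSF1R counts was not tested.

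**Figure D3:**
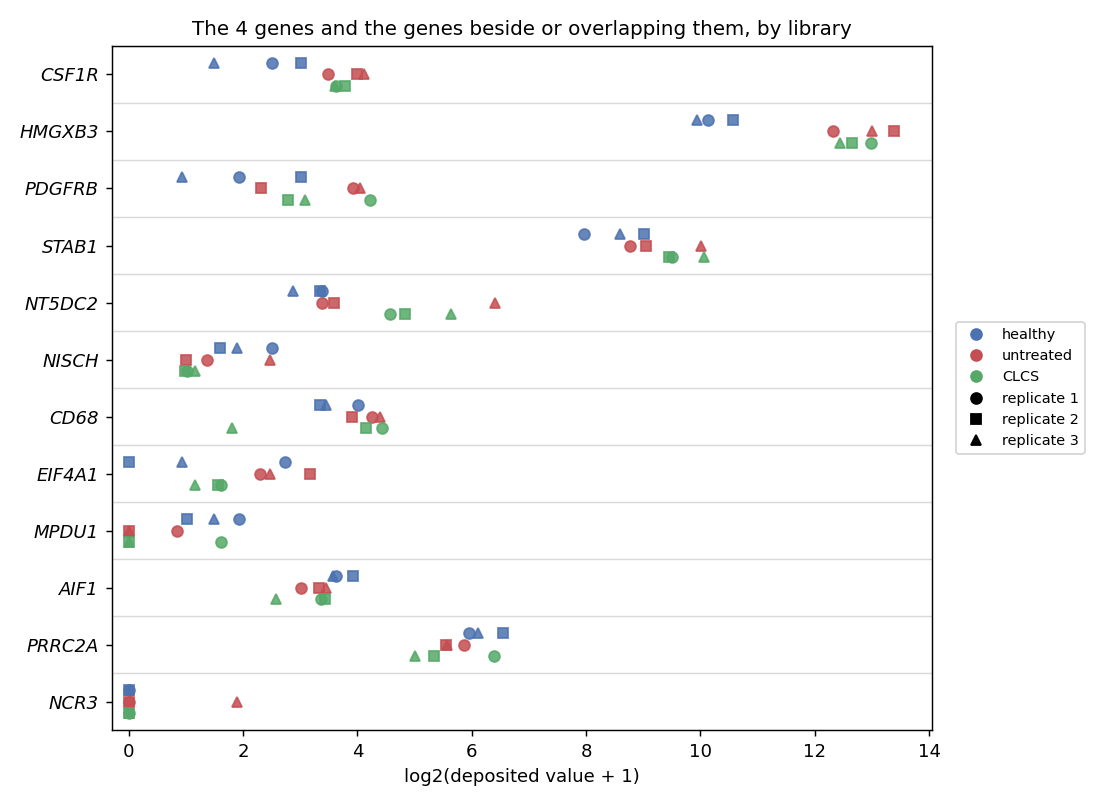
Level of the 4 genes and of the listed genes beside or overlapping them on the horizontal axis, as log2(deposited value + 1), with 1 point per library, colours for the groups and shapes for the replicate number. HMGXB3, beside CSF1R, has more reads in every library and is higher in all 6 defect libraries than in healthy ones, and NT5DC2, which overlaps STAB1, is highest in the untreated replicate 3 library as STAB1 is within its group.

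Few reads of the genes that work with CSF1R were counted. Of its ligands, CSF1 had 0 to 11 reads per library and IL34 had 0 to 7, without separation of the groups. Of 14 ligands, adaptors and myeloid transcription factors on the list, 12 were listed in the tables, and 0 were tested in untreated, 1 in CLCS and 2 in both defect groups against healthy cartilage. The summed level of this list was 18.3 to 25.4 in healthy, 27.0 to 195 in untreated and 48.6 to 56.1 in CLCS libraries. SPI1, the master transcription factor of the myeloid lineage, had 0 to 2 reads per library, and TREM2, a lipid receptor of macrophages and osteoclasts, 0 to 4.

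TYROBP, the signalling adaptor of TREM2 and other myeloid receptors, was the gene of this list called in CLCS defects. It had 7, 8 and 10 reads in healthy libraries, 17, 9 and 166 in untreated libraries and 27, 29 and 28 in CLCS libraries. The CLCS libraries were above all healthy ones and close to each other, whereas a single untreated library held 166 of the 192 reads of its group. With 7 to 10 reads in healthy libraries, TYROBP passed the filter mainly through the CLCS libraries. Its presence among the genes tested is thus no support for a difference. Of the 3294 genes tested in CLCS defects, 3.16% were called and 12.2% had all CLCS libraries above all healthy ones. TYROBP rose in CLCS defects by 1.82 (SE 0.27, adjusted p = 0.0188 with limma). That call held in 6 of 8 other settings, and was lost with no filter on low values (adjusted p = 0.130) and with all 9 libraries in 1 fit (adjusted p = 0.317). It held in 1 of 6 leave-one-out fits, the one without healthy replicate 2, and the other 5 gave adjusted p of 0.0526 to 0.0897. With both defect groups together the difference was 1.74 (adjusted p = 0.213), and without untreated replicate 3 it was 1.13 (adjusted p = 0.0373). The difference between CLCS and untreated defects was 0.16 in limma, with a 95% interval from -2.02 to 2.35. Its direction changed with the method, at -0.91 with edgeR and -0.91 with DESeq2. Without untreated replicate 3 it was 1.38 in limma.

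RUNX1, a transcription factor that acts on the CSF1R gene in myeloid cells and is also active in skeletal progenitors, had 3, 4 and 2 reads in healthy, 8, 9 and 12 in untreated and 6, 11 and 9 in CLCS libraries. All 6 defect libraries were above the healthy ones. Of the 3812 genes tested with both defect groups together, 7.71% had this separation and 6.58% were called. RUNX1 passed the filter mainly through the defect groups, so its presence among the genes tested is no support for a difference. It rose in both defect groups together by 1.38 (SE 0.30, adjusted p = 0.0294 with limma), a call that held in 3 of 7 other settings and 4 of 9 leave-one-out fits and was lost with edgeR (adjusted p = 0.0753) and DESeq2 (adjusted p = 0.0956). The 5 libraries whose removal ended it were healthy replicates 1 and 3, untreated replicate 2 and CLCS replicates 2 and 3, with adjusted p of 0.0591 to 0.117.

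STAB1 was the only one of the 4 genes with at least 265 reads in each library. STAB1 (ENSOCUG00000028026) had 265, 508 and 426 reads in healthy, 552, 526 and 1139 in untreated and 702, 707 and 859 in CLCS libraries. The deposited values were 250, 516 and 385 in healthy cartilage (mean 383 ± 133, SD, n = 3), 435, 526 and 1033 in the untreated group (665 ± 322) and 725, 696 and 1069 in the CLCS group (830 ± 208). On the deposited scale all CLCS libraries were above all healthy ones, and the untreated libraries overlapped both other groups. With each library scaled to its total recovered reads, the untreated libraries (603 to 1571) were also above all healthy ones (352 to 538). The spread within groups was far above counting error: the chi-square statistic of the reads over its degrees of freedom, about 1 for counting error alone, was 45.6 to 179.

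The difference of STAB1 between CLCS defects and healthy cartilage depended on the test. The mean was 2.17-fold higher in CLCS defects, and the fitted difference was 1.15 (SE 0.36, 95% interval 0.31 to 1.98, adjusted p = 0.152 with limma), which was not a call. DESeq2 on the recovered reads called it (adjusted p = 0.0365), and edgeR did not (adjusted p = 0.0928). The share of tested genes with all CLCS libraries above all healthy ones was 12.2%. In untreated defects the mean was 1.73-fold higher, with a difference of 0.75 (SE 0.44, adjusted p = 0.482), which went to 0.38 (adjusted p = 0.812) without untreated replicate 3. With both defect groups together the difference was 0.95 (SE 0.36, adjusted p = 0.161).

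Between CLCS and untreated defects STAB1 differed by 0.40, with a 95% interval from -0.52 to 1.31 (adjusted p = 0.996 with limma). On the deposited scale the CLCS value was the higher one in all 3 pairs of the same replicate number. For replicate 3 it was 1069 against 1033 on that scale, but 859 against 1139 in reads. With each library scaled to its total, replicate 3 was also lower in CLCS, at 700 against 1571. In the fit with a replicate block the interval was -0.25 to 1.04 (adjusted p = 0.884 with limma). The order of these groups changed with the scale. The mean in CLCS defects was 1.25 times that in untreated defects on the deposited scale, and with each library scaled to its total it was 0.826 times. In this comparison 0% of 3275 genes were called by limma, and 0 by edgeR and by DESeq2, while 95, 88 and 76 genes had an unadjusted p under 0.05 in the 3 tests.

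In mOryCun1.1 the STAB1 gene overlaps NT5DC2, a nucleotidase domain protein, and has UQCC5 and NISCH beside it. UQCC5 was not found among the listed symbols. NT5DC2 had 10, 9 and 7 reads in healthy, 12, 11 and 93 in untreated and 22, 28 and 39 in CLCS libraries. NT5DC2 passed the filter mainly through the defect libraries, so its presence among the genes tested is no support for a difference. It rose in CLCS defects by 1.81 (SE 0.36, adjusted p = 0.0451 with limma). That call held in 5 of 8 other settings and in 0 of 6 leave-one-out fits (adjusted p 0.0659 to 0.125). In the fit with a replicate block it was lost (adjusted p = 0.0598). The library with 93 reads of NT5DC2 was the one with 1139 reads of STAB1. NISCH had 1 to 5 reads in each library. The division of reads between the overlapping genes was not tested.

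STAB2, the paralog of STAB1 and a hyaluronan receptor of sinusoidal endothelium, had 53, 53 and 66 reads in healthy, 54, 60 and 46 in untreated and 33, 40 and 33 in CLCS libraries. It went the other way to STAB1 in CLCS defects, with a difference of -0.50 (SE 0.26, adjusted p = 0.368 with limma) that was not called. Of the 14 scavenger and endocytic receptors and ligands on the list, 13 were listed and 5 tested in each comparison, and 0 were called in any. In CLCS defects 3 of the 5 were higher and 2 lower, with a median difference of 0.11 against -0.08 over all genes tested, and in untreated defects 1 was higher and 4 lower, with a median of -0.33 against -0.02. Of the 5, SPARC, a matrix protein and STAB1 ligand of skeletal cells, differed by 0.15 in CLCS defects (adjusted p = 0.900 with limma), and LRP1, a broad endocytic receptor, by -1.11 (adjusted p = 0.415).

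CD68 showed no call in any comparison. The healthy libraries held 16, 9 and 11 reads of CD68 (ENSOCUG00000010383), the untreated libraries 23, 14 and 22, and the CLCS libraries 20, 17 and 2. Its groups overlapped. The mean deposited value was 11.4 ± 3.22 (SD, n = 3) in healthy cartilage, 17.4 ± 3.04 in the untreated and 13.3 ± 9.56 in the CLCS group. The difference in untreated defects was 0.58 (SE 0.31, adjusted p = 0.429 with limma), and the ratio of pooled reads was 1.53 (95% exact binomial interval 0.996 to 2.39).

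A single library set the CLCS level of CD68. The 3 CLCS libraries spread beyond counting error, with the same statistic at 5.61, against 0.953 in healthy and 0.552 in untreated libraries. The difference between CLCS defects and healthy cartilage was -0.14 (SE 0.67, adjusted p = 0.944 with limma), and without CLCS replicate 3 it was 0.69 (adjusted p = 0.452). Between CLCS and untreated defects it was -0.72 (95% interval -2.27 to 0.83), and without CLCS replicate 3 it was 0.11. In that library the gene with the largest count took 49.4% of all reads, the highest share of any library. The genes beside CD68 in mOryCun1.1 had few counted reads, with 0 to 8 reads of EIF4A1, a translation initiation helicase, and 0 to 3 of MPDU1 in each library.

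Other lysosomal genes were not called either. Of 20 lysosomal genes on the list, which CD68 was not on, 15 were listed and 5 tested in untreated defects, all 5 higher with a median difference of 0.45 against -0.02 over all genes, and 0 called. In CLCS defects 3 were tested, 2 higher and 1 lower, with a median of 0.13 against -0.08. CTSB, a lysosomal cysteine protease, had 35 to 43 reads in healthy, 40 to 83 in untreated and 30 to 41 in CLCS libraries. CTSA, a lysosomal carboxypeptidase, had 3069 reads in untreated replicate 3, 356 in CLCS replicate 3 and 8 to 92 in the other libraries, which placed the summed level of the list between 109 and 2920 in untreated defects.

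AIF1 had lower deposited values in all 6 defect libraries than in healthy cartilage, without a call. The healthy libraries held 12, 14 and 12 reads of AIF1 (ENSOCUG00000023521), the untreated libraries 9, 9 and 11, and the CLCS libraries 9, 10 and 4. After division by size factors the values were 11.3, 14.2 and 10.8 in healthy cartilage (mean 12.1 ± 1.82, SD, n = 3), 7.09, 9.0 and 9.97 in the untreated group (8.69 ± 1.47) and 9.30, 9.84 and 4.98 in the CLCS group (8.04 ± 2.66). All defect libraries were below all healthy ones on this scale. The share of tested genes with such a separation downwards was 10.7% in untreated defects, 12% in CLCS defects and 5.75% with both together. With each library scaled to its total recovered reads, AIF1 was not separated. On that scale untreated replicate 3 (15.2) was above healthy replicates 2 and 3 (14.8 and 13.1).

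None of these differences of AIF1 passed the test. The mean was 0.717 times the healthy level in untreated and 0.663 times in CLCS defects, and the ratios of pooled reads were 0.714 (95% exact binomial interval 0.425 to 1.19) and 0.685 (0.389 to 1.18). The fitted differences were -0.44 (SE 0.28, adjusted p = 0.529 with limma) and -0.58 (SE 0.33, adjusted p = 0.415), and with both defect groups together -0.51 (SE 0.27, adjusted p = 0.326). AIF1 did not pass the filter between CLCS and untreated defects, where the read ratio was 0.960 (0.530 to 1.72). Its libraries varied no more than counting error within groups, with the chi-square statistic over its degrees of freedom at 0.282 to 0.741. The intervals of both read ratios include 1.

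In mOryCun1.1 AIF1 lies between PRRC2A and NCR3 and overlaps a long noncoding RNA gene, LOC138849683, which was not found among the listed symbols. The part of its reads in the AIF1 counts was not tested. PRRC2A, an RNA binding protein, had 65, 91 and 75 reads in healthy, 73, 46 and 51 in untreated and 80, 40 and 25 in CLCS libraries, and its difference was -0.54 (adjusted p = 0.435 with limma) in untreated and -0.63 (adjusted p = 0.487) in CLCS defects. NCR3, a natural killer cell receptor, had 3 reads in 1 untreated library and 0 in the other 8 libraries. In direction, CSF1R and STAB1 had higher means in both defect groups and AIF1 lower ones. The direction of CD68 in CLCS defects differed between the fit and the ratio of means, which was 1.17. The 4 genes were not called in either defect group alone.

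Few or no reads of most other macrophage markers were counted. Of 27 further monocyte and macrophage markers on the list, 19 were listed, 3 were tested in each comparison and 0 were called. The scavenger receptor CD163 had 1 read in the 9 libraries together, and VSIG4, a complement receptor of resident macrophages, also 1. MSR1 had 2 reads in all, both in CLCS libraries, MARCO had 3, all in healthy libraries, and the mannose receptor MRC1 had 0 to 5 per library. CD14, the lipopolysaccharide co-receptor of monocytes, had 1 to 8 reads per library and its groups overlapped. A count of 0 in a library allows up to 3 reads. With genes such as ACTB and GAPDH also low in these counts, a low or zero count of a marker is no measure of its absence from the tissue.

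The markers that passed the filter did not differ between groups beyond their spread. ITGAM, the alpha chain of the myeloid integrin CR3, had 17 to 30 reads in healthy, 20 to 52 in untreated and 22 to 30 in CLCS libraries (difference in untreated defects 0.11, adjusted p = 0.946 with limma). GPNMB, a glycoprotein of macrophages and osteoblasts, had 35 to 43 reads in healthy, 36 to 45 in untreated and 20 to 38 in CLCS libraries, with a difference in CLCS defects of -0.43 (adjusted p = 0.530). LGMN, a lysosomal endopeptidase, had 10 to 25 reads in healthy, 14 to 27 in untreated and 9 to 11 in CLCS libraries, with a difference between CLCS and untreated defects of -0.66 (adjusted p = 0.996). The median difference of the 3 was 0.11 in untreated and -0.29 in CLCS defects, against -0.02 and -0.08 over all genes.

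PTPRC, the CD45 antigen of all leukocytes, had 3, 2 and 3 reads in healthy, 9, 15 and 6 in untreated and 4, 5 and 9 in CLCS libraries. All 6 defect libraries were above the healthy ones, as for CSF1R and for 7.71% of the 3812 genes tested. PTPRC did not pass the filter in any comparison and was not tested. It was chosen for mention after its values were seen.

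Of 3 further genes, chosen for mention after their values were seen, untreated replicate 3 held 12 of the 16 reads of C1QA, 17 of the 35 reads of C1QC, both chains of the complement component C1q that macrophages secrete, and 13 of the 19 reads of MPEG1, a pore-forming protein of phagocytes. C1QA had 0 reads in healthy libraries and in the other untreated libraries, and 0 to 3 in CLCS libraries. C1QC had 0 to 3 reads in healthy libraries and 2, 6 and 6 in CLCS libraries. The summed level of the 19 markers was 93.1 to 99.9 in healthy, 80.4 to 203 in untreated and 90.5 to 97.1 in CLCS libraries, with the highest value in untreated replicate 3. CSF1R was also highest of all libraries there, with 18 reads, while AIF1 and CD68 were not set apart from the rest of their group.

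Markers of other cells that can carry these genes moved with the groups in part. Of 13 osteoclast genes, 9 were listed and 2 tested, and both were called with both defect groups together, where 6.58% of 3812 genes were called. CTSK, the collagen-degrading protease of osteoclasts that some fibroblasts also make, had 19, 9 and 1 reads in healthy, 95, 63 and 48 in untreated and 52, 37 and 14 in CLCS libraries, and rose by 2.65 (adjusted p = 0.0460 with limma). MMP9, a gelatinase of osteoclasts, neutrophils and macrophages, had 15, 7 and 1 reads in healthy, 77, 67 and 20 in untreated and 91, 49 and 18 in CLCS libraries, and rose by 2.88 (adjusted p = 0.0460). Both genes passed the filter mainly through the defect libraries, so their presence among the genes tested is no support for a difference. CTSK and MMP9 were not called in untreated defects alone (adjusted p = 0.0980 and 0.139 with limma) or in CLCS defects alone (0.225 and 0.108). In the fit with a replicate block both were called in untreated defects (adjusted p = 0.0459 and 0.0342 with limma) and in CLCS defects (0.0406 and 0.0144). The CTSK call held in 1 and the MMP9 call in 3 of 9 leave-one-out fits. The summed osteoclast level was 7.23 to 36.7 in healthy, 72.5 to 169 in untreated and 49.8 to 175 in CLCS libraries. On the deposited scale the sums of the defect libraries did not overlap with healthy cartilage. The sums were not compared with libraries scaled to their totals. CLCS replicate 3 had the most recovered reads of all libraries (1226408) and the lowest size factor (0.803), so this separation may depend on the scale. Of the single genes tested, 7.71% had all defect libraries above all healthy ones. CTSK itself overlapped, with 14 reads in CLCS replicate 3 and 19 in healthy replicate 1. DCSTAMP, the fusion protein of osteoclasts, had 0 reads in healthy and 1 or 2 in each defect library, and CALCR, the calcitonin receptor, had 1 to 7 in all. The part of osteoclasts in the CSF1R and CD68 values was not tested.

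No endothelial, blood or marrow gene was called. Of 14 endothelial genes 12 were listed, with a summed level of 57.8 to 81.2 in healthy, 58.0 to 89.0 in untreated and 61.0 to 78.5 in CLCS libraries. PLVAP, a protein of endothelial fenestrae, had 0, 5 and 2 reads in healthy, 7, 11 and 18 in untreated and 8, 13 and 4 in CLCS libraries. It was higher with both defect groups together by 1.97 (SE 0.56, adjusted p = 0.0735 with limma), and ESAM, the other endothelial gene tested there, differed by -0.31 (adjusted p = 0.566). PECAM1 had 0 reads in healthy libraries and 0 to 4 in defect libraries, CDH5 had 0 to 8, VWF 0 to 2 and LYVE1, a hyaluronan receptor of lymphatic vessels and some macrophages, 0 to 2. The 5 neutrophil and marrow genes listed summed to 3.63 to 9.84 over all libraries, and 0 were tested. Of 9 erythroid genes 4 were listed, summing to 13.2 to 50.7 in healthy, 20.5 to 70.7 in untreated and 38.2 to 88.4 in CLCS libraries, with 1 tested and 0 called. Of 14 lymphocyte genes 7 were listed, summing to 106 to 123 in healthy, 76.2 to 109 in untreated and 73.5 to 97.1 in CLCS libraries, with 3 tested, all lower in each comparison with healthy cartilage and 0 called.

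Some matrix genes of the tissue were called alongside. Of 12 fibroblast genes 11 were listed and 8 tested in each defect group. Of these 5 were higher and 3 lower in untreated and 4 higher and 4 lower in CLCS defects, with 3 called in each. Over all genes tested, 2.55% of 3496 were called in untreated and 3.16% of 3294 in CLCS defects. COL1A1 and COL1A2, the chains of type I collagen, and POSTN, a matricellular protein of fibrous tissue, rose in both defect groups. COL1A1 had 262, 94 and 40 reads in healthy, 1957, 795 and 2123 in untreated and 1986, 1228 and 1065 in CLCS libraries (3.79 and 3.95 on the log2 scale, adjusted p = 0.0398 and 0.0277 with limma). FN1, fibronectin, differed by -0.72 and -0.93 (adjusted p = 0.657 and 0.487). LUM, a small proteoglycan of collagen fibrils, had 1, 0 and 0 reads in healthy, 39, 6 and 70 in untreated and 15, 8 and 32 in CLCS libraries and was called with both defect groups together (adjusted p = 0.0118). It passed the filter through the defect groups, so its presence among the genes tested is no support for the difference. Of 16 cartilage genes 11 were listed and 8 tested. CILP, a matrix protein of the middle cartilage zone, fell by 2.78 in untreated (adjusted p = 0.0381) and by 2.39 in CLCS defects (adjusted p = 0.0361). In untreated defects all 8 cartilage genes were lower, with a median of -1.29. In CLCS defects 4 of them were higher and 4 lower, with a median of -0.11. Over all genes tested, 1694 of 3496 were higher in untreated and 1478 of 3294 in CLCS defects, with medians of -0.02 and -0.08. Between CLCS and untreated defects all 8 cartilage genes were higher in the CLCS group, with a median of 1.13 and 0 called. Over all genes tested there, 1620 of 3275 were higher. The summed level of the cartilage list was 819 to 10114 in untreated and 10126 to 28231.5 in CLCS libraries. COL2A1 had 505 reads in untreated replicate 3 and 20508 in CLCS replicate 3, and the part of these single libraries in the contrast was not tested. When a library was left out, 2 to 7 genes in all were called in untreated and 0 to 81 in CLCS defects. The cell makeup of the samples was not measured, and its part in the values of the 4 genes was not tested.

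The genes with the most similar pattern over the 9 libraries were taken by the Pearson correlation of log2(deposited value + 1) over 3812 genes, as a description of libraries that share their groups and depth. For CSF1R they were BCAS1 (r = 0.965), PLTP (0.959), a phospholipid transfer protein, and PTRHD1 (0.948). PLTP had 2256 to 4084 reads in healthy, 9007 to 9359 in untreated and 6456 to 9634 in CLCS libraries, and was called with both defect groups together (difference 1.45, adjusted p = 0.0168 with limma). For STAB1 they were RNF123 (0.961), a ubiquitin ligase subunit, SDS (0.960), serine dehydratase, and ADA (0.950), adenosine deaminase. SDS had 969 to 1428 reads in healthy, 2040 to 5695 in untreated and 2725 to 4142 in CLCS libraries, again with its highest count in untreated replicate 3, and its difference with both groups together was 1.48 (adjusted p = 0.0573). For CD68 they were VIPR1 (0.927), C6orf89 (0.923) and KIF5B (0.888), a kinesin heavy chain, each with the lowest deposited value of the 9 libraries in CLCS replicate 3. For AIF1 they were SLC22A2 (0.918), an organic cation transporter, HTR3B (0.901), a serotonin receptor subunit, and C12orf71 (0.880). SLC22A2 was lower in all 6 defect libraries, at 114 to 134 reads in healthy cartilage against 34 to 88 in the defects, and was not called (adjusted p = 0.132). No list of markers held any of these 12 genes.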

How the data were processed

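RNA was sequenced from 9 libraries, 3 per group, with groups and replicate numbers taken from the sample labels. What was deposited is a normalized signal for each gene: per the methods, the authors aligned polyA TruSeq reads to oryCun2.0 with TopHat and Bowtie, counted unique alignments with eXpress and normalized with DESeq2. Versions and strand setting are not given in the sources used here. Values were whole reads over the library's size factor, and these reads were recovered for 100% of values (tolerance 0.01). The 3 healthy columns, repeated in both tables, were used once.

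limma 3.58.1 (R 4.3.3, lmFit and eBayes) was run on log2(deposited value + 1) for genes kept by filterByExpr on recovered reads, with Benjamini-Hochberg adjustment. The design had named this test for normalized values. Called genes with few healthy reads, among them TYROBP, RUNX1, NT5DC2, CTSK, MMP9 and LUM, passed the filter mainly through defect libraries. edgeR 4.0.16, DESeq2 1.42.0, log2 CPM with a prior count of 2, pseudocounts of 0.5 and 5, no filter, a replicate block, a fit of all 9 libraries and leave-one-out fits were alternatives. Leave-one-out fits kept the genes of the full fit, a choice made after fits with new filtering had been seen. Scripts were tested on simulated data. Intervals of read ratios (SciPy 1.17.1) cover counting error only.

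The members, the 11 gene lists and the tests were chosen with earlier results of these data known. Named genes were the members, their neighbours, called list members or up to 4 tested ones with the highest mean, and the 3 genes most like each member; others are said to be chosen later or describe genes with few counted reads. All 4 members and 10306 of 11002 symbols matched the RefSeq table of mOryCun1.1. Deviations from the group mean were correlated over genes between libraries of the same number. The correlations of untreated with healthy libraries were 0.288, 0.125 and -0.0361. Those of CLCS libraries were 0.276, 0.143 and 0.193 with healthy libraries. With untreated libraries they were 0.246, 0.334 and 0.297. Numbers were therefore read as possible pairs for the CLCS group only, which these correlations cannot settle. Pairs of CLCS libraries with both other groups would also pair untreated with healthy libraries. Libraries of different number were not correlated in this way. The main fits used no pairs in any comparison. The replicate block was an alternative setting, run in every comparison.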

Additional observations from a re-analysis of the deposited data

How the results depend on the processing

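Of 204 refitted log2 differences of the 4 genes, 187 kept their direction and side of the threshold, and 83 of 84 ratios of means moved by less than the spread. CSF1R in both defect groups lost its call with edgeR (1.48), DESeq2 (1.5) and no filter (1.43), and leave-one-out fits gave 1.01 to 1.77. STAB1 in CLCS against healthy libraries was called by DESeq2 (1.14). CD68 in CLCS against healthy libraries turned upward with edgeR (0.26) and DESeq2 (0.26). Leave-one-out fits moved it from -0.62 to 0.69, its difference from untreated libraries from -1.21 to 0.11, and that of both defect groups from -0.020 to 0.64. The causes were not tested. Genes called in untreated defects numbered 89, against 275 with DESeq2, 20 with no filter, 171 with all 9 libraries and 2 to 7 in leave-one-out fits. In CLCS defects they numbered 104, against 243 with DESeq2, 13 with no filter and 0 to 81 in leave-one-out fits. With both defect groups they numbered 251, against 425 with DESeq2 and 96 to 235 in leave-one-out fits. With the replicate block 94, 125 and 319 genes were called in these comparisons and 0 between CLCS and untreated libraries. The block changed no call of the 4 genes and ended that of NT5DC2 in CLCS defects. It added calls of CTSK and MMP9 in untreated and in CLCS defects. Few counted reads limit AIF1, CD68 and CSF1R, which had 2 to 23 per library. In CLCS against healthy libraries CSF1R, and between CLCS and untreated libraries AIF1, had no value in fits with the filter on their own 6 libraries.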
